A study of Homo sapiens with 12 samples.

Results

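The genes described here are the core subunits of the mTOR complexes and the proteins that hold those complexes in check. They are 10 genes, DDIT4, SESN2, TSC1, TSC2, DEPTOR, AKT1S1, MTOR, MLST8, RPTOR and RICTOR, picked by name with earlier results of the same comparison known. Of them, 7 were among the 6396 genes that carry input RNA values in the authors' deposited table, and TSC2, MTOR and MLST8 were not. That table lists only genes with a differential m6A entry, so absence from it does not mean absence of RNA. By gene label, 9 of the 10 had at least 1 m6A peak among the 13692 gene names of the knockdown peak list, and all 10 did among the 17466 gene names of the control list. Because RNA and m6A differences between the conditions were known when the genes were picked, their values are given below as a description, without p-values, and nothing is read from whether they pass a threshold.

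All libraries came from HGC27, a gastric carcinoma cell line of human origin. The study used methylated RNA immunoprecipitation with sequencing (MeRIP-seq): fragmented poly(A) RNA was sequenced either directly (input) or after pull-down with an antibody to N6-methyladenosine (m6A). It compared cells depleted of FTO, an enzyme that removes m6A from RNA, with negative control cells. There were 12 libraries, 3 input and 3 pull-down in each condition. The tested cells have titles with "sh" and a number, and their genotype label reads FTO-KO, whereas the protocol speaks of a knockdown; they are called FTO knockdown here. Control titles read "WT" and "Con", with WT as genotype, and name no hairpin. No further allele, drug or time is given, and the labels do not say whether the numbers stand for separate hairpins or cultures, so the spread between libraries may be technical.

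mTOR is a protein kinase that promotes growth and protein synthesis and restrains autophagy when nutrients, energy and growth factors are sufficient. It works in a pair of complexes: mTORC1, built around RPTOR, and mTORC2, built around RICTOR, both with MLST8 and both able to bind the inhibitor DEPTOR. DDIT4 and SESN2 are stress-induced proteins that lower mTORC1 activity, DDIT4 through the TSC1-TSC2 complex, which switches off the mTORC1 activator RHEB, and SESN2 as a leucine-sensitive inhibitor of nutrient signalling through GATOR2. AKT1S1 is a substrate and inhibitory partner of mTORC1.

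The input values are FPKM (fragments scaled by transcript length and by the mapped total of the library), so levels can be set beside each other between genes. FTO averaged 0.793 ± 0.0335 FPKM in knockdown cells and 5.56 ± 0.108 FPKM in control cells (SD, n = 3 each). Summed over the listed genes, FPKM per library ranged over 83712.5 to 86902.1 in knockdown cells and 74288.9 to 78460.7 in control cells. Read depth per library is unknown from the files. Pearson correlations of log2(FPKM + 1) between libraries were 0.992 to 0.995 within a condition and 0.977 to 0.982 between conditions. Of 8 markers listed for epithelial carcinoma cells, VIM included, only MUC1 carried input values, so the labelled cell type could not be checked from RNA. Of 7 fibroblast markers, COL1A1 and THY1 did, and of 5 immune markers none did. The fibroblast pair had a summed level of 153 to 170 FPKM in knockdown libraries and 177 to 189 FPKM in control libraries. The pair differed in direction: COL1A1 averaged 147 FPKM in knockdown cells and 169 FPKM in control cells (limma adjusted p = 0.0108, not called after median-centring), and THY1 averaged 15.0 FPKM in knockdown cells and 12.5 FPKM in control cells (limma adjusted p = 0.00318). Markers without values were only missing from a table of differential m6A entries, and may still be expressed. The part of these markers in the results was not tested. All values are from bulk RNA, in which fewer cells carrying a transcript and less of it per cell cannot be told apart.

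Among the stress-induced inhibitors, DDIT4 RNA was lower and SESN2 RNA higher in knockdown cells. DDIT4 had 48.8, 52.0 and 50.6 FPKM in the knockdown libraries, against 115, 119 and 117 FPKM in the control libraries. Every knockdown library lay below every control library. The means were 50.5 ± 1.59 FPKM in knockdown cells and 117 ± 1.67 FPKM in control cells (SD, n = 3 each), 2.32-fold lower in knockdown cells. On the log2(FPKM + 1) scale, which understates changes of low genes, the difference was -1.20 (SE 0.0393).

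SESN2 had 30.5, 29.3 and 31.9 FPKM in the knockdown libraries, against 19.7, 19.5 and 19.3 FPKM in the control libraries. The groups did not overlap, and the 3 control libraries were close together. The means were 30.6 ± 1.33 FPKM in knockdown cells and 19.5 ± 0.191 FPKM in control cells (SD, n = 3 each), 1.56-fold higher in knockdown cells, with a log2 difference of 0.62 (SE 0.0422).

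The ratio of these inhibitors within a library does not depend on how that library was scaled. DDIT4 over SESN2 was 1.60, 1.78 and 1.59 in the knockdown libraries, against 5.85, 6.08 and 6.07 in the control libraries. DDIT4 was the more abundant of the pair in all 6 libraries, and its lead over SESN2 was 3.63-fold smaller in knockdown cells.

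The stretches of genome just upstream of the DDIT4 and SESN2 start sites are shown because these are the stress-induced members and their RNA lay on opposite sides of the control level. Each is 150 bases from RefSeq (GRCh38.p14), on the plus strand, ending at the base before the annotated start. Capitals mark ACGTG, the core of the hypoxia response element, and ATTGG, which is the CCAAT box read on the opposite strand.
DDIT4, chr10:72273774-72273923: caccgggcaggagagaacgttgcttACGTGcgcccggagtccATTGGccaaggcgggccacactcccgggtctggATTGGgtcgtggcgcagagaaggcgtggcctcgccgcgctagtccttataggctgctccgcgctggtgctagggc
SESN2, chr1:28259368-28259517: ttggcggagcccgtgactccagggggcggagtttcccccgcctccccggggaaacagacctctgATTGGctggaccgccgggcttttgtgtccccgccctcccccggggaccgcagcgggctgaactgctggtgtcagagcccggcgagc

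The search covered the 250 bases before the start on both strands, for ACGTG with its reverse complement CACGT, for CCAAT with its reverse complement ATTGG, and for the C/EBP-ATF response element TTGCATCA with its reverse complement TGATGCAA. DDIT4 held ACGTG at -125 and ATTGG at -108 and -75, counted in bases from the start site. SESN2 held ATTGG at -151 and -86, the first of them beginning 1 base before the printed stretch, and neither of the other motifs. Over 35116 promoter windows of 250 bases, 18.5% held ACGTG, 32.0% held CCAAT and 0.772% held TTGCATCA, in either orientation. Among the 7 members with a window, TSC2 held CACGT at -114, ACGTG at -113 and TGATGCAA at -110, matches that overlap one another. RICTOR held ACGTG at -206 and ATTGG at -19, and MTOR held ATTGG at -196, -75 and -34. These are matches of letters in a window and not measured binding sites.

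**Figure D1:**
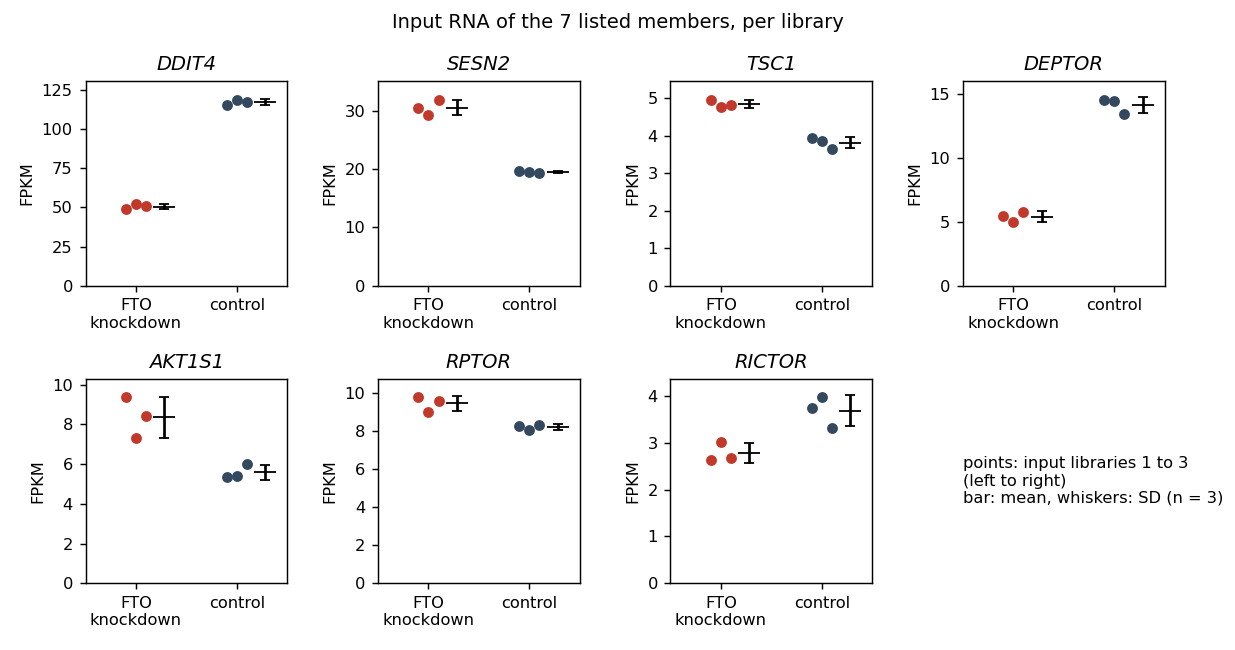
Input RNA levels in FPKM (linear axes from 0, scaled per gene) of the 7 members with values, with FTO knockdown left and control right; points are the 3 libraries of each condition, horizontal bars their means and whiskers the SD. DDIT4 and DEPTOR lie lower in knockdown cells by more than 2-fold, SESN2 and AKT1S1 lie higher, and the differences of TSC1, RPTOR and RICTOR are small.

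TSC1, the scaffold of the complex that inactivates RHEB, had 4.97, 4.76 and 4.83 FPKM in the knockdown libraries, against 3.95, 3.86 and 3.65 FPKM in the control libraries. The groups did not overlap. The means were 4.85 ± 0.103 FPKM in knockdown cells and 3.82 ± 0.154 FPKM in control cells (SD, n = 3 each), 1.27-fold higher in knockdown cells (log2 difference 0.28, SE 0.0455). For TSC2, the subunit with the GTPase-activating domain, no input value was analysed here, so the balance within the complex could not be described.

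DEPTOR, the inhibitor that binds both complexes, had the largest fold difference of the 7 genes. Its level was 5.49, 4.96 and 5.76 FPKM in the knockdown libraries, against 14.5, 14.4 and 13.4 FPKM in the control libraries. All 3 knockdown libraries were far below all 3 control libraries. The means were 5.40 ± 0.410 FPKM in knockdown cells and 14.1 ± 0.634 FPKM in control cells (SD, n = 3 each), 2.61-fold lower in knockdown cells (log2 difference -1.24, SE 0.0585).

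DEPTOR and DDIT4 kept a similar ratio to each other. DDIT4 over DEPTOR averaged 9.39 ± 0.950 in knockdown libraries and 8.30 ± 0.420 in control libraries (SD, n = 3 each). DEPTOR over SESN2 averaged 0.177 ± 0.00631 in knockdown libraries and 0.723 ± 0.0265 in control libraries, 4.09-fold lower in knockdown cells.

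AKT1S1, also known as PRAS40, had 9.36, 7.31 and 8.43 FPKM in the knockdown libraries, against 5.36, 5.41 and 6.03 FPKM in the control libraries. The knockdown libraries were all higher, though they were spread more widely than those of the other members in relation to their mean. The means were 8.37 ± 1.03 FPKM in knockdown cells and 5.60 ± 0.373 FPKM in control cells (SD, n = 3 each), 1.49-fold higher in knockdown cells (log2 difference 0.50, SE 0.0826).

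Of the subunits that define each complex, RPTOR was slightly higher and RICTOR lower in knockdown cells. RPTOR, which brings substrates to mTORC1, had 9.76, 9.01 and 9.56 FPKM in the knockdown libraries, against 8.27, 8.02 and 8.31 FPKM in the control libraries. The groups did not overlap, at 9.44 ± 0.389 FPKM in knockdown cells and 8.20 ± 0.155 FPKM in control cells (SD, n = 3 each), 1.15-fold higher in knockdown cells (log2 difference 0.18, SE 0.0437).

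RICTOR, the scaffold of mTORC2, had 2.63, 3.02 and 2.68 FPKM in the knockdown libraries, against 3.75, 3.96 and 3.32 FPKM in the control libraries. The highest knockdown library stayed below the lowest control library. The means were 2.78 ± 0.211 FPKM in knockdown cells and 3.68 ± 0.327 FPKM in control cells (SD, n = 3 each), 1.32-fold lower in knockdown cells (log2 difference -0.31, SE 0.0679). RPTOR over RICTOR averaged 3.42 ± 0.384 in knockdown libraries and 2.24 ± 0.241 in control libraries (SD, n = 3 each).

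The order of levels differed between the conditions mainly through DEPTOR. In knockdown cells the order was DDIT4, SESN2, RPTOR, AKT1S1, DEPTOR, TSC1 and RICTOR; RPTOR overlapped AKT1S1, and DEPTOR overlapped TSC1. In control cells it was DDIT4, SESN2, DEPTOR, RPTOR, AKT1S1, TSC1 and RICTOR, and only TSC1 and RICTOR, as neighbours, overlapped. DEPTOR thus had rank 5 in knockdown cells and rank 3 in control cells. DEPTOR over RPTOR averaged 0.572 ± 0.0275 in knockdown libraries and 1.72 ± 0.0989 in control libraries (SD, n = 3 each).

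Input RNA was fitted with limma on log2(FPKM + 1) over the 4515 genes that averaged 1 FPKM or more, and a gene was called at a Benjamini-Hochberg adjusted p under 0.05. By this rule 62.4% of all tested genes were called, 24.5% as higher and 37.9% as lower in knockdown cells. All tested genes carry a differential m6A entry, so these shares do not stand for the whole transcriptome. All 7 members with values passed the filter and were called, 4 higher and 3 lower. Their 3 libraries per condition did not overlap in any of the 7, as in 67.8% of all tested genes. Since this contrast was among the values behind the choice of members, nothing is read from these counts. The median log2 difference was 0.18 over the 7 members and -0.07 over all tested genes. The split of calls over all genes moved with the scaling: 39.3% of called genes were higher in knockdown cells with the values as deposited, 52.3% after quantile normalization and 55.4% after median-centring. The 7 members kept direction and call under both scalings. Scaling to the summed FPKM, which was higher in every knockdown library than in every control library, was not tried. The small RPTOR difference may depend on it.

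The genes whose RNA profile over the 6 input libraries was most like a member's were named by Pearson's r of log2(FPKM + 1), as a description. The 6 libraries fall into 2 conditions, so a high r mostly reflects the same direction of difference. For DDIT4 they were LETMD1 (r = 0.9998), FTO itself (0.9993) and FAM171A1 (0.9992). For DEPTOR they were ADAMTS4 (0.9995), ZCCHC24 (0.9989) and LOX (0.9989). ADAMTS4 is a secreted protease, and LOX is an enzyme that crosslinks collagen. LOX had 8.98 FPKM in knockdown cells and 18.1 FPKM in control cells on average. For SESN2 they were SIK3 (0.9996), WDR73 (0.9993) and TUBA1C (0.9984), and TUBA1C, an alpha-tubulin, averaged 178 FPKM in knockdown cells and 132 FPKM in control cells.

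The m6A peaks were called by the authors in 1 list per condition, and a peak's fold enrichment of pull-down over input is the authors' own value, with no replicate spread. By gene label the members had 20 of the 28891 peaks in the knockdown list and 25 of the 39492 peaks in the control list. Of these, 17 of the knockdown peaks overlapped a control peak on the same gene model by at least 1 base, as did 88.7% of all knockdown peaks. In the control list 17 of the 25 overlapped a knockdown peak, as did 57.6% of all control peaks. Most were annotated to 3' UTRs: 11 of 20 in the knockdown list and 14 of 25 in the control list. The share over all peaks was not computed. The annotation goes by transcript, so a peak can be called 3' UTR far inside its gene. An example is the RPTOR control peak at chr17:80823372-80823551, in a RefSeq gene that ends at 80966368. The median enrichment of member peaks was 7.56-fold in the knockdown list and 6.51-fold in the control list. Over all peaks the median was 7.05-fold in the knockdown list and 6.11-fold in the control list.

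**Figure D2:**
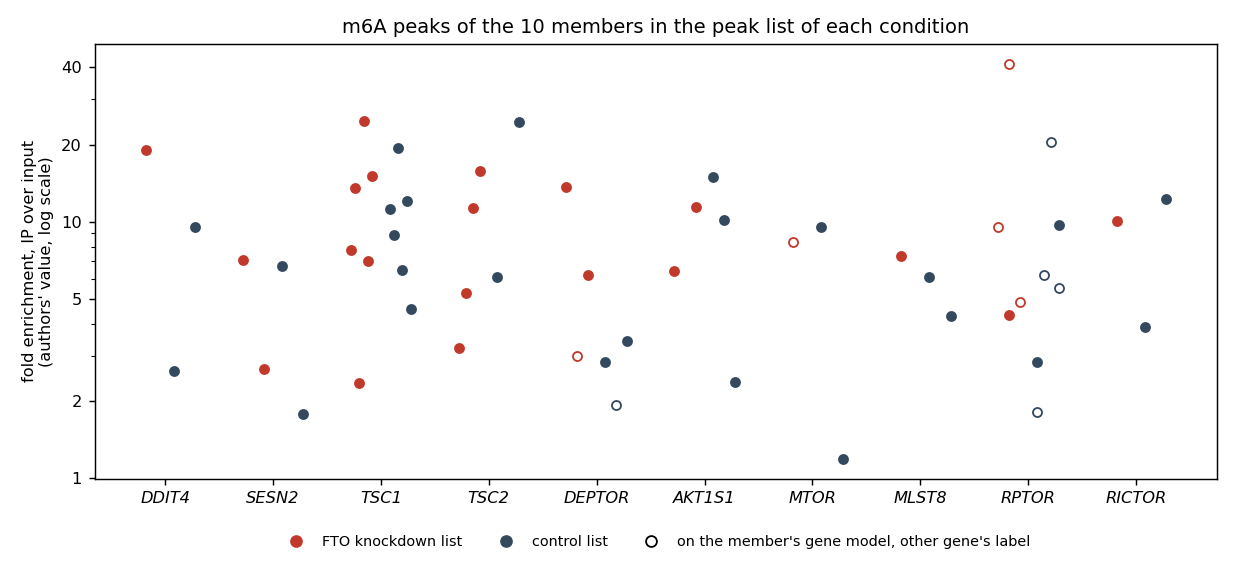
Fold enrichment of pull-down over input (authors' value, log scale) of each m6A peak of the 10 members, knockdown list left and control list right within each gene; open circles are peaks on the member's gene model that carry another gene's label. The DDIT4 peak stands at 19.1-fold in the knockdown list against 9.55-fold in the control list, and the highest point, at 41.3-fold, is a knockdown peak on the RPTOR 3' UTR labelled with a pseudogene.

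DDIT4 carried a single long peak in the knockdown list and 2 peaks in the control list, together covering nearly the same stretch. On GRCh38, the knockdown peak spanned chr10:72274311-72275441, with 1072 exonic bases, and was annotated to the 3' UTR at 19.1-fold enrichment. The control peaks were a 209-base peak in exon 2 of 3 at chr10:72274341-72274549, with 2.61-fold enrichment, and a 3' UTR peak at chr10:72274608-72275590, with 9.55-fold enrichment. In the authors' deposited table the m6A log2 change over chr10:72274311-72275560 was 0.63 in knockdown over control cells. DDIT4 thus combined higher m6A enrichment with lower input RNA in knockdown cells. Enrichment is a ratio over input, so these are not independent observations: lower input by itself raises the ratio. The antisense gene DDIT4-AS1 carried an overlapping peak of 18.8-fold in the knockdown list and 9.66-fold in the control list, and since the strand used for counting is not given in the sources used here, signal of DDIT4 and its antisense partner cannot be told apart.

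SESN2 had the same pair of 3' UTR peaks in both lists. The one nearer the coding region, chr1:28280850-28281298 in the knockdown list, was enriched 7.10-fold there and 6.74-fold in the control list. The one further along, chr1:28281984-28282491 in the knockdown list, was enriched 2.66-fold there and 1.78-fold in the control list. For this weaker peak the authors' deposited table gives an m6A log2 change of 0.34 in knockdown over control cells, the smallest in size of the 8 member entries.

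**Figure D3:**
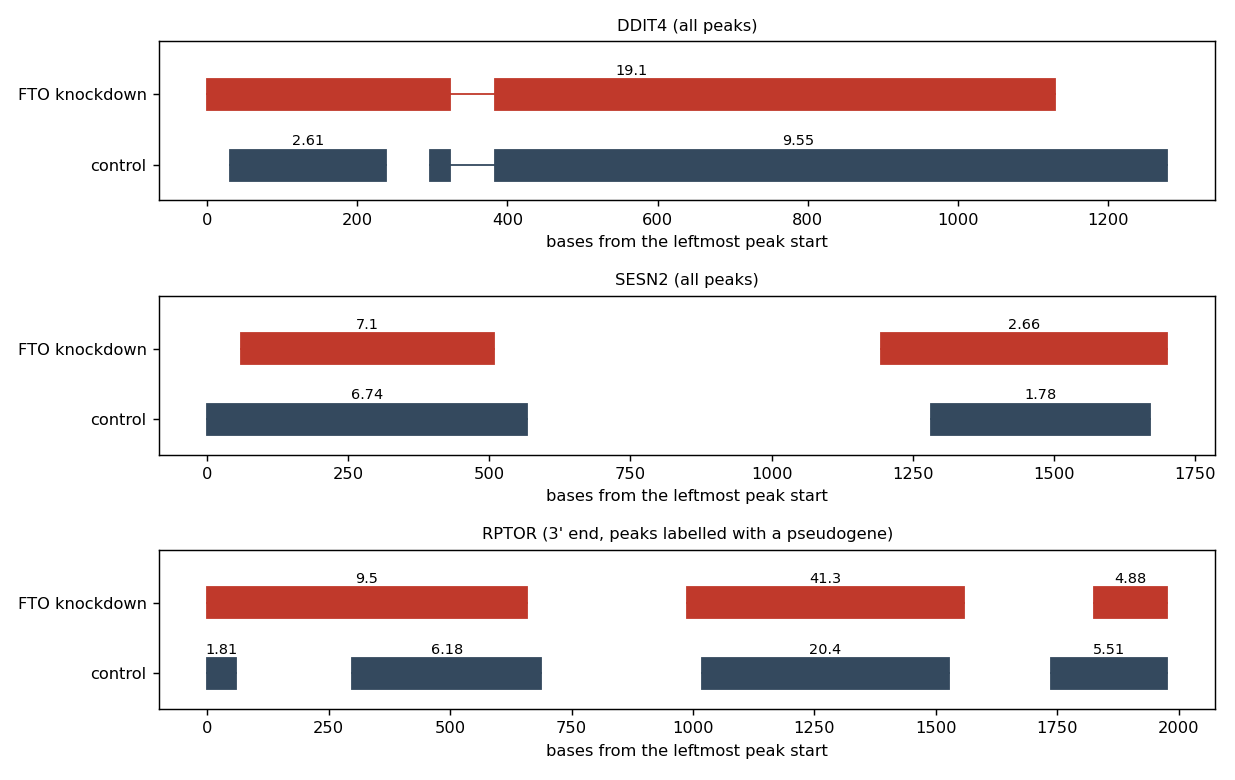
Peak positions in bases from the leftmost peak start of DDIT4, SESN2 and the 3' end of RPTOR, knockdown list above and control list below; filled boxes are peak blocks, thin lines join blocks of 1 peak and numbers are fold enrichments. DDIT4 has 1 peak of 19.1-fold in the knockdown list where the control list has peaks of 2.61-fold and 9.55-fold, and the middle RPTOR peak stands at 41.3-fold in the knockdown list and 20.4-fold in the control list.

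TSC1 had 6 peaks in each list, the most of any member when counted by label. Its strongest lay at chr9:132895905-132896685 in the 3' UTR, at 24.7-fold in the knockdown list and 19.4-fold in the control list. One stretch of 2220 bases in the control list, chr9:132891348-132893567 with 11.2-fold enrichment, was split into 3 peaks of 7.79-fold, 13.5-fold and 2.35-fold in the knockdown list. A control peak at chr9:132894496-132894796, with 8.87-fold enrichment, had no counterpart in the knockdown list. That is where the authors' deposited table places its TSC1 entry, chr9:132894496-132894736, with an m6A log2 change of -1.15 in knockdown over control cells. TSC1 was therefore lower in m6A at that position, and slightly higher in RNA.

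TSC2 peaks were short, 61 to 91 bases, and were annotated to exons. The knockdown list had 4, the strongest 15.8-fold at chr16:2087082-2087142, and the control list had 2, the strongest 24.4-fold at that same position. Only this shared peak reached an adjusted p of 1e-05 (authors' value), in both lists. The remaining 3 knockdown peaks and the other control peak did not reach it and did not overlap a peak of the other list. The difference in number therefore rests on weakly supported peaks. No TSC2 entry is among those with differential m6A values.

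Peaks labelled DEPTOR lay at its start. The one on the DEPTOR gene model was annotated to the 5' UTR, at chr8:119873717-119928417 across a splice junction in the knockdown list and at chr8:119873717-119873926 in the control list. It was enriched 6.20-fold in the knockdown list and 3.42-fold in the control list. The other labelled peak, 13.7-fold in the knockdown list and 2.83-fold in the control list, sits on exon 1 of 2 of a transcript of a different Ensembl gene, ENSG00000245330, which runs antisense. The m6A log2 change of DEPTOR in the authors' deposited table was 0.76 in knockdown over control cells at chr8:119873471-119874009. That entry is annotated to exon 1 of 2, like the peak on the antisense transcript. Its span also holds the 5' UTR control peak of the DEPTOR gene model, and without the strand used for counting the signals cannot be told apart. A 3' UTR peak on the DEPTOR gene model carried the label AC091563, at 3.0-fold in the knockdown list and 1.93-fold in the control list. For that AC091563 entry the authors' deposited table gives 0.53 in knockdown over control cells.

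AKT1S1 peaks were all annotated to its 5' UTR. At chr19:49876615-49877362 the enrichment was 11.4-fold in the knockdown list and 10.2-fold in the control list. At chr19:49873224-49873553 it was 6.41-fold in the knockdown list, and the overlapping control peak, ending at 49873702, had 14.9-fold. Another peak, of 2.38-fold, was in the control list only. The authors' deposited table gives an m6A log2 change of 0.87 in knockdown over control cells between them, at chr19:49873941-49874180, where neither peak list has a peak.

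MTOR, the kinase itself, had no peak under its own label in the knockdown list and 2 in the control list, of 9.51-fold in the 3' UTR and 1.19-fold in an exon. Part of the difference in number is a matter of labels: at chr1:11106625-11107344 the knockdown list has a peak of 8.37-fold on the MTOR gene model that is labelled EXOSC10, inside the 3' UTR peak of the control list at chr1:11106535-11108263. MLST8, the small subunit that binds the kinase domain, had 1 shared 3' UTR peak, 7.32-fold at chr16:2208736-2209274 in the knockdown list and 4.30-fold in the control list. A second MLST8 peak of 6.11-fold in the control list covered 60 bases and did not reach an adjusted p of 1e-05 (authors' value).

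RPTOR had its strongest peaks under another label as well. Under its own name there was a 5' UTR peak of 4.33-fold in the knockdown list, chr17:80544849-80545358, and of 2.84-fold in the control list, plus a control peak of 9.67-fold at chr17:80823372-80823551. On the 3' UTR of the RPTOR gene model, however, the knockdown list had 3 peaks and the control list 4, all labelled RPL12P37, a pseudogene name. The strongest of these, chr17:80965383-80965952 in the knockdown list, was enriched 41.3-fold there and 20.4-fold in the control list. For this RPL12P37 entry the authors' deposited table gives a log2 change of 0.98 in knockdown over control cells. Its 2 entries named RPTOR, 1.58 at chr17:80948568-80948658 and 2.37 at chr17:80949501-80957727 (authors' deposited table, knockdown over control), contain no peak of either list.

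RICTOR had 1 shared 3' UTR peak, of 10.1-fold at chr5:38950010-38950459 in the knockdown list and of 12.3-fold in the control list. Its second 3' UTR peak, at chr5:38941904-38942353 with 3.88-fold enrichment, was in the control list only. At that position the authors' deposited table gives an m6A log2 change of -0.66 in knockdown over control cells.

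Counting peaks by the gene model of their transcript in place of the label, a choice made after seeing the data, gave 24 member peaks in the knockdown list and 29 in the control list, with 21 of each shared. Label and gene model differed in 21.7% of all knockdown peaks and 22.6% of all control peaks.

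In all, the authors' deposited table held 8 entries for 7 members, 6 of them higher in m6A in knockdown cells, where 55.4% of its 8687 entries with a gene name were higher. Both lower entries, of TSC1 and RICTOR, fell on 3' UTR peaks found in the control list only. Of the 8 member entries, 3 contained no peak of either list, against 2.91% of all entries. The deposited log2 changes run control over knockdown and were turned round here. The turned values had the same sign as the log2 ratio of knockdown over control peak enrichments in 92.5% of 4052 entries. These are the entries overlapped by exactly 1 peak of the same gene label in each list. Set beside input RNA, the entry was higher and the RNA lower for DDIT4, both were higher for SESN2, AKT1S1 and RPTOR, the entry was lower and the RNA higher for TSC1, and both were lower for RICTOR. DEPTOR had lower RNA beside a higher entry, annotated like the peak on the antisense transcript. Peak enrichment is a ratio over input, so m6A and RNA values are not independent observations. An entry stands for its own position and not for the gene: the AKT1S1 entry holds no peak. The shared AKT1S1 peak nearest to it was 6.41-fold in the knockdown list and 14.9-fold in the control list. The other shared AKT1S1 peak was 11.4-fold in the knockdown list and 10.2-fold in the control list. Likewise the TSC1 entry covers 1 peak of the control list, while the strongest shared TSC1 peak was 24.7-fold in the knockdown list and 19.4-fold in the control list.

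**Figure D4:**
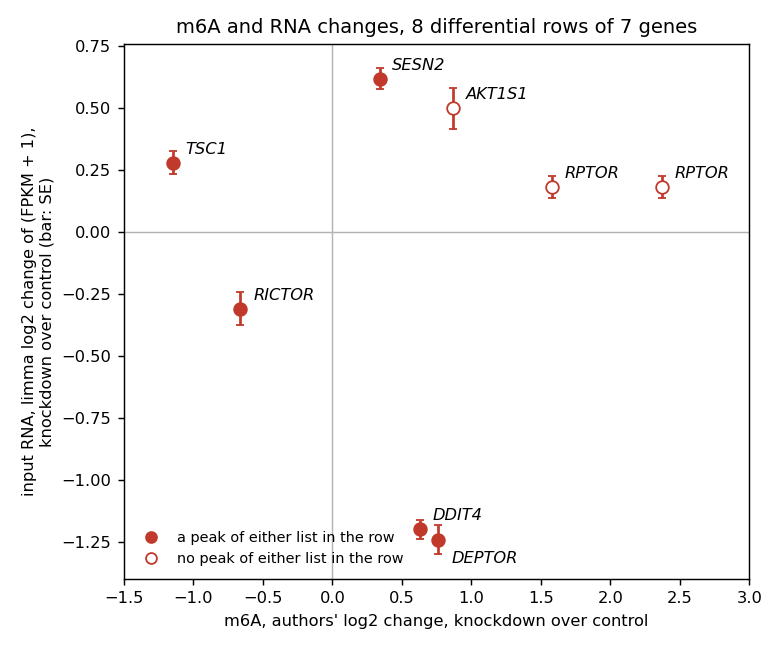
Each of the 8 differential m6A entries of the members, with the authors' m6A log2 change (x axis, knockdown over control) against the limma log2 change of input RNA (y axis, log2(FPKM + 1), knockdown over control, bars are SE); open circles contain no peak of either list. DDIT4 and DEPTOR sit alone at the lower right with log2 RNA changes of -1.20 and -1.24, and the other entries lie on either side of both zero lines. The DEPTOR entry is annotated like the peak on an antisense transcript. Peak enrichment is a ratio over input, so the axes may not be independent.

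Other genes of the pathway were counted from lists of related genes, with adjusted p-values from limma over all 4515 tested genes. Of 109 listed genes, 39 had a differential m6A entry and with it input values. Of these, 38 were tested: 7 rose, 17 fell and 14 did not pass. Their median log2 difference was -0.15, beside -0.07 over all tested genes, and the share called was 63.2%, beside 62.4% over all.

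Both tested genes among the other mTOR complex subunits rose. PRR5L, a subunit of mTORC2, averaged 3.70 FPKM in knockdown cells and 2.94 FPKM in control cells (limma adjusted p = 0.00281). Its relative PRR5 averaged 3.84 FPKM in knockdown cells and 3.04 FPKM in control cells (limma adjusted p = 0.00838). TBC1D7, the third subunit of the TSC complex, fell to 1.44 FPKM in knockdown cells, against 2.14 FPKM in control cells (limma adjusted p = 0.000622). SESN3, a relative of SESN2, had 5.30 FPKM in knockdown cells and 5.24 FPKM in control cells and did not pass (limma adjusted p = 0.835).

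Of 11 tested amino acid sensing genes, 2 rose, 3 fell and 6 did not pass, with a median log2 difference of -0.12. CASTOR2, a relative of the arginine sensor CASTOR1, fell to 13.6 ± 0.457 FPKM in knockdown cells, against 25.5 ± 1.24 FPKM in control cells (SD, n = 3 each; limma adjusted p = 1.28e-05). Its near-identical copy CASTOR3, at 2.15 FPKM in knockdown cells and 2.49 FPKM in control cells, may share its reads, so both values are uncertain; CASTOR3 was called (limma adjusted p = 0.0330), but not after quantile normalization, where its log2 difference was 0.00595, nor after median-centring (-0.05), nor without knockdown library 1 or 3 or control library 1 or 2. The Ragulator subunits, which anchor mTORC1 activation at the lysosome, differed in direction. LAMTOR1 rose to 16.8 FPKM in knockdown cells, against 13.7 FPKM in control cells (limma adjusted p = 0.0117), and LAMTOR2 fell to 9.16 FPKM in knockdown cells, against 11.3 FPKM in control cells (limma adjusted p = 0.00539). NPRL3 of GATOR1 had 14.5 FPKM in knockdown cells and 14.8 FPKM in control cells (limma adjusted p = 0.692), and FLCN, the folliculin gene, had 5.05 FPKM in knockdown cells and 5.20 FPKM in control cells (limma adjusted p = 0.521). Leaving out knockdown library 1, 2 or 3 or control library 2 or 3 left 1 gene of the list higher, and 5 were lower without control library 3.

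Growth factor and energy inputs held the largest number of calls, with 9 of 16 tested genes lower, 2 higher and 5 not passing, and a median log2 difference of -0.26. Over all tested genes 37.9% were lower and 24.5% higher. The number lower was 8 after quantile normalization, where 28.7% of all tested genes were lower, and 7 after median-centring, where 26.9% were. IRS1, the adaptor of insulin and IGF1 receptors, fell to 4.51 ± 0.160 FPKM in knockdown cells, against 7.80 ± 0.474 FPKM in control cells (SD, n = 3 each; limma adjusted p = 4.08e-05). PRKAG1, a regulatory subunit of the energy sensor AMPK, fell to 8.52 FPKM in knockdown cells, against 13.6 FPKM in control cells (limma adjusted p = 5.05e-05). PHLPP2, a phosphatase that acts on AKT, rose to 5.65 FPKM in knockdown cells, against 3.58 FPKM in control cells (limma adjusted p = 7.46e-05). CAB39L, a relative of the LKB1 partner CAB39, did not pass (limma adjusted p = 0.980). PIK3R2, a regulatory subunit of PI3K, had 29.1, 26.4 and 0.246 FPKM in the knockdown libraries, against 30.3, 29.6 and 33.0 FPKM in the control libraries. It did not pass (limma adjusted p = 0.211), and its log2 difference was -1.66 with knockdown library 3 and -0.15 without it.

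Of 5 tested substrates of the complexes, 3 fell, 1 rose and 1 did not pass. ULK1, the kinase that starts autophagy, fell to 1.88 FPKM in knockdown cells, against 2.71 FPKM in control cells (limma adjusted p = 0.000721), and its partner ATG13 rose to 14.0 FPKM in knockdown cells, against 11.9 FPKM in control cells (limma adjusted p = 0.00379). The calls of GRB10 (limma adjusted p = 0.0336) and MITF (limma adjusted p = 0.0418) did not hold under either other scaling, which left 1 substrate lower, as did leaving out knockdown library 2 or 3 or control library 1 or 2. LARP1, which represses translation of ribosomal protein mRNAs, had 70.7 FPKM in knockdown cells and 71.7 FPKM in control cells (limma adjusted p = 0.656). Among 16 listed regulators of DDIT4, SESN2 and DEPTOR, 2 were tested. ATF4, a transcription factor that can induce both DDIT4 and SESN2 under stress, fell to 118 FPKM in knockdown cells, against 146 FPKM in control cells (limma adjusted p = 0.000232), and CUL1, a scaffold of the ubiquitin ligase that targets DEPTOR protein, had 17.0 FPKM in knockdown cells and 19.0 FPKM in control cells (limma adjusted p = 0.140). Without control library 3, CUL1 was called lower as well.

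**Figure D5:**
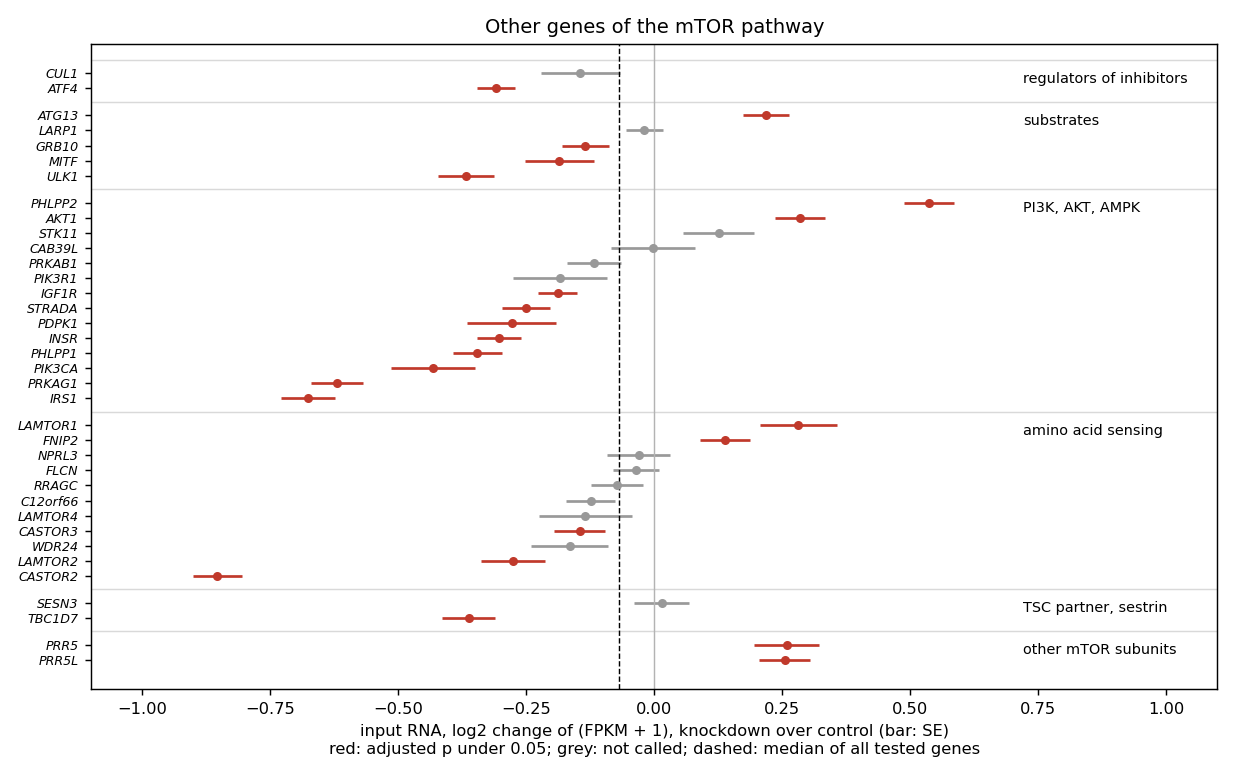
Log2 change of input RNA (log2(FPKM + 1), knockdown over control, bars are SE) of tested pathway genes by list, red at an adjusted p under 0.05; the dashed line is the median of all tested genes and PIK3R2 is left off for its wide error. IRS1, PRKAG1 and CASTOR2 lie furthest to the left and PHLPP2 furthest to the right.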

How the data were processed

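The values were used as the authors deposited them. The authors' deposited FPKM of the 6 input libraries (the table lists 6396 genes) were averaged per condition and tested as log2(FPKM + 1) with limma 3.58.1 (R 4.3.3), knockdown over control, with a trend on the mean level, no block and Benjamini-Hochberg adjustment over the 4515 genes averaging 1 FPKM or more. Low FPKM showed no steps of whole reads (the smallest value above 0 is 7.49e-07), so no count test was possible. The script was tested on simulated data.

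The deposited peak lists give a fold enrichment, a ratio of pull-down over input, and the log10 of a p-value and of its adjusted value per peak, a score the authors made; 1 list per condition was deposited, and no value per pull-down library was analysed here. The authors' deposited differential table gives a log2 m6A change, log10 p-values and a log2 expression change; its entries with a gene name all have p of at most 0.049, so a gene or site that did not differ is not listed. Its expression log2 matched log2 of control over knockdown FPKM, and its m6A log2 ran the same way, so signs were turned. Entries without a gene name (283) were left out. Coordinates are 1-based: 1 was added to starts. Per the submitters' processing notes Bowtie 0.12.2, HISAT2 2.0 and StringTie 1.3.0 were used, with roles not given; the peak caller is not given in the sources used here. The notes name the mouse build mm8, but 99.1% of 24159 transcripts matched by symbol overlapped their RefSeq gene on GRCh38.p14, so positions are read as GRCh38.

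Named genes are the 10 members, FTO, per pathway list the called genes up to 4 with the smallest p and up to 2 with the largest p, and the 3 tested genes with the highest r to each of DDIT4, DEPTOR and SESN2; 1 gene this rule names is counted in its list but not reported here. Members and lists were chosen with earlier results of these data known. Alternatives were pseudocount, filter, scaling, trend, a replicate block, each library left out, and stricter peak thresholds and overlaps. P-values measure the spread between these libraries only.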

Additional observations from a re-analysis of the deposited data

How the results depend on the processing

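Every one of the 89 alternative values of single members kept its direction and its side of the threshold. TSC1 and RICTOR, with means under 5 FPKM, were not tested at the filter of 5 FPKM, where 5 of 5 members were called. The refits reuse the same libraries, and the members were chosen with this contrast known. They describe the processing only and add no support to the calls. Log2 differences over these alternatives ranged over -1.23 to -1.11 for DDIT4, -1.37 to -1.15 for DEPTOR, 0.56 to 0.71 for SESN2, 0.26 to 0.39 for TSC1, 0.43 to 0.59 for AKT1S1, 0.16 to 0.28 for RPTOR and -0.39 to -0.18 for RICTOR. At a mean of at least 5 FPKM, where fewer genes are tested, 1603 genes were called in all, of which 773 were lower, beside 2819 and 1712 at 1 FPKM, and 11 pathway genes were called, beside 24. Calls in all were 1420 higher and 1294 lower after quantile normalization, and 1507 higher and 1213 lower after median-centring, beside 1107 higher and 1712 lower as deposited. The log2 difference of CASTOR3 was 0.00595 after quantile normalization; the cause was not tested. Other single genes (pathway genes, markers and FTO) kept direction and side of the threshold in 459 alternatives, lost the call in 35 and gained it in 13. In 18 more, of 8 genes, the sign changed without a call in either fit. Leaving out 1 library gave 2413 to 3005 calls in all and 20 to 28 in the pathway lists. With the replicate number as a block, 2747 genes were called in all and 21 in the pathway lists, and 7 of 7 members. Same-numbered knockdown and control libraries correlated at -0.077, 0.028 and 0.025 in their deviations from the group means. Libraries with different numbers correlated at -0.176 to 0.189. These values show no sign of pairing by number but, with 3 libraries per group, cannot exclude it. Member peaks numbered 17 in the knockdown list and 17 in the control list at 4-fold or more, and 17 in the knockdown list and 20 in the control list when the adjusted p had to reach 1e-05. With an overlap of 50% of both peaks, 14 knockdown and 15 control peaks were shared. Depth is unknown, so no counting error could be given.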

Other observations

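In the control peak list, 909 of 39492 peaks (2.30%) carry one and the same pair of values, 6.11-fold enrichment with a log10 p of -1.32. The 60-base control peak of MLST8 and a 91-base control peak of TSC2 are among them. Without these peaks the median enrichment of the control list was 5.85-fold. The most frequent pair in the knockdown list, 8.89-fold with a log10 p of -2.06, was held by 124 peaks and by no peak of a member.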
